A study of Drosophila melanogaster with 3 samples.

Results

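Glycolysis splits glucose into pyruvate and yields ATP and NADH, and lactate dehydrogenase turns pyruvate into lactate and returns the NADH to NAD+. In Drosophila the enzymes of the pathway are switched on together midway through embryonic development, under the nuclear receptor ERR, ahead of larval growth. Some steps are encoded by several paralogous genes, among them Gapdh1 and Gapdh2 for glyceraldehyde-3-phosphate dehydrogenase. The 10 genes described here are Hex-A, Pgi, Pfk, Tpi, Gapdh1, Gapdh2, Pgk, Eno, PyK and Ldh, out of 13968 annotated protein coding genes. They were chosen by name, with results of these data known. A summit, the position of highest signal in a peak, was assigned to a gene if it lay in the gene or within 2 kb of either end. This gave 32 of the 8340 summits of the reproducible peak list, called the optimal list.

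The peaks come from chromatin immunoprecipitation and sequencing (ChIP-seq) in Drosophila melanogaster. Whole embryos of the strain CG2120-GFP were collected at 18 to 24 h. Its transgene expresses CG2120, a predicted C2H2 zinc finger protein, with enhanced GFP at the C terminus, and an antibody against GFP was used. There is 1 group of 3 biological replicates, and no second genotype or stage was measured. The whole embryo mixes all tissues, so a peak cannot be placed in a cell type. Reads are not counted in the peak lists and sequencing depth is unknown. Signal is therefore compared by rank within a list, with rank 1 the strongest.

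All 10 genes had at least 1 summit in the gene or 2 kb around it, where 52.2% of all protein coding genes had one. The median length was 3864.5 bp for the 10 genes and 2164.5 bp for all, and the part of length in these shares was not tested. At the promoter, taken as 500 bp on either side of any annotated transcription start site (TSS) of the gene, 8 of the 10 had a summit, against 34.0% of all protein coding genes. These 8 were Hex-A, Pgi, Tpi, Gapdh2, Pgk, Eno, PyK and Ldh, and the same 8 had one among the 8340 strongest peaks of each replicate. Gapdh1 and Pfk had none. Within 200 bp of a TSS 5 of the 10 had a summit, against 26.2% of all genes, and in the gene body 4 of the 10, against 18.3%. A promoter summit from the 1000 strongest peaks was present at 5 of the 10 genes, against 6.78% of all genes, and 2 or more promoter summits at 4 of the 10, against 6.09%. Eno and Pgk were among the 5 only through internal TSSs. At the first TSS the strongest summit had rank 1038 for Eno and 3298 for Pgk. The 10 genes have 25 TSSs, and the part of this number in the counts was not tested. The strongest promoter summit of a gene had a median percentile of 92.0 by signal over the 8 genes and of 64.2 over all 4747 genes with one. These are counts and medians for 10 genes that were proposed with results of these data known, and no test was made.

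**Figure D1:**
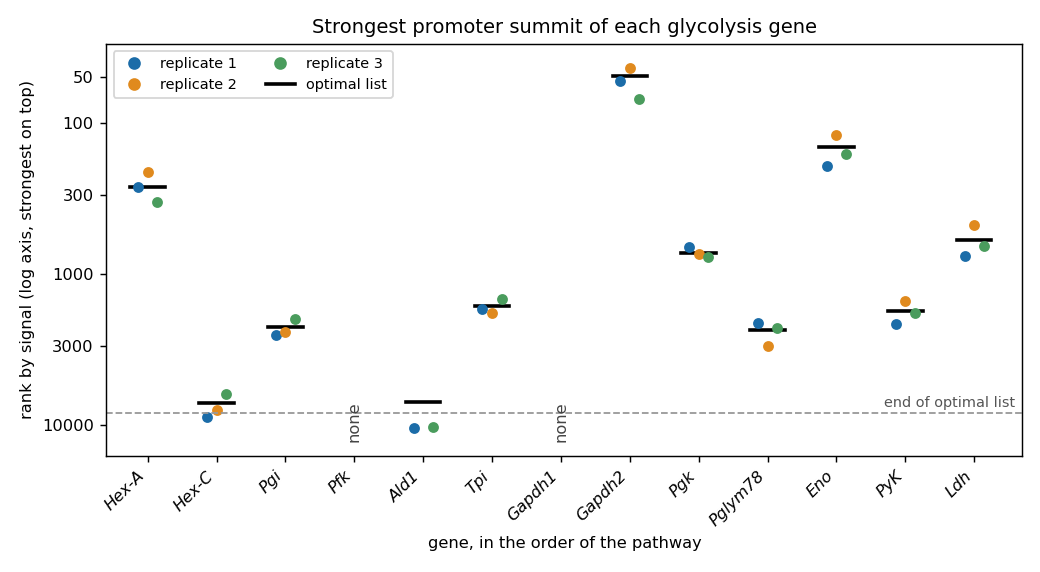
Rank by signal of the strongest promoter summit of each gene in the order of the pathway, on a log axis with the strongest peaks on top. Black bars give the optimal list and points the nearest summit within 100 bp in each of the 3 replicates; Gapdh2, Eno and Hex-A rank highest, Gapdh1 and Pfk have none, and replicate 2 has no point for Ald1. Hex-C, Ald1 and Pglym78 are shown for the steps they encode and are not among the 10 genes.

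Gapdh2 (FBgn0001092, dm6, X, 15868145 to 15869661, plus strand) carried the strongest peak of the set. Its summit lay at -169 bp from the first TSS, upstream of the gene, with a signal of 2899 and rank 49 in the optimal list. It ranked 53 in replicate 1, 43 in replicate 2 and 69 in replicate 3 (55.0 ± 13.1, SD, n = 3). The summit itself moved by at most 1 bp between replicates. Eno (FBgn0000579, 2L, 1724768 to 1729636, minus strand) encodes enolase, which makes phosphoenolpyruvate. Its strongest summit had a signal of 1718 and rank 144, and ranked 192, 120 and 161 in replicates 1, 2 and 3 (158 ± 36.1). It lay in an intron, at -252 bp from the third of 3 annotated TSSs, not at the first. A second Eno summit, with rank 1038 and replicate ranks of 1216, 1040 and 965, lay at -123 bp from the first TSS, where CG31937 also has a TSS within 500 bp. The 101 bp centred on that summit overlap an untranslated region of Rrp40, a gene that overlaps Eno on the other strand. Each replicate had both Eno summits, with the intronic one at the higher rank.

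Hex-A (FBgn0001186, X, 9585675 to 9589813, plus strand) encodes a hexokinase, which phosphorylates glucose as the pathway begins. Its promoter summit, at -162 bp and with a signal of 1330, had rank 266, and its replicate ranks were 267, 211 and 333 (270 ± 61.1, SD, n = 3). A further Hex-A summit at -1789 bp had rank 870 and replicate ranks of 807, 813 and 929. Ldh (FBgn0001258, 3L, 6259105 to 6262694, minus strand) encodes lactate dehydrogenase. Its summit at -202 bp from the first TSS had a signal of 877.6 and rank 600, with replicate ranks of 757, 472 and 654 (628 ± 144). The 2 internal TSSs of Ldh had no optimal summit within 500 bp. These 4 genes gave the 4 highest promoter ranks of the set in the optimal list. In replicate 1 the promoter summit of Pgk with rank 729 ranked 660, above that of Ldh at 757. The replicate ranks of Gapdh2, Eno and Hex-A did not overlap with each other or with those of Ldh.

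The sequences under these 4 summits are shown because, among the strongest promoter summits of each gene, these 4 rank highest. All 4 are also rich in A and T and hold a short run. The line after these 4 was drawn with both traits seen, so their contrast with the other 4 genes is not independent of that choice. Each sequence is the 101 bases of the release 6 assembly centred on the summit, on the strand of the gene, and none overlaps an annotated untranslated region. Capitals mark TTAAAA or its reverse complement TTTTAA, the 6-mer whose share differed most between the 1000 strongest summits of all genes and windows 500 bp away. This 6-mer was picked after the data were seen. The 1000 strongest summits include these 4, so finding it in them is not an independent observation.
Gapdh2, chrX:15867926-15868026: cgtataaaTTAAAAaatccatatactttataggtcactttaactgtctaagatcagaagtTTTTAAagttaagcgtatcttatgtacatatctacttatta
Eno, chr2L:1727919-1728019: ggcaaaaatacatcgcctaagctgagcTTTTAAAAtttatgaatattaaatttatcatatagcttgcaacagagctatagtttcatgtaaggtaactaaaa
Hex-A, chrX:9585463-9585563: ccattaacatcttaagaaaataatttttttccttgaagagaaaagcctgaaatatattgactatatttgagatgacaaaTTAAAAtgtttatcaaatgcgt
Ldh, chr3L:6262846-6262946: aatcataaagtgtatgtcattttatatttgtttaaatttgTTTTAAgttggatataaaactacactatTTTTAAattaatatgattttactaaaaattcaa

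All 4 windows hold the 6-mer, and all are rich in A and T, at 75.2% for Gapdh2, 71.3% for Eno, 75.2% for Hex-A and 84.2% for Ldh. None of the strongest promoter windows of Pgk, Tpi, PyK and Pgi, with ranks from 729 to 2253, holds it, and their share of A and T was 51.5%, 68.3%, 61.4% and 56.4%. Of all 17 promoter windows of the set 6 hold it (35.3%), the other 2 at weaker summits of Pgi and PyK. Of the 32 summits 9 hold it. Among these is the strongest summit in Pgk, rank 521, outside the promoter windows of Pgk and with 61.4% A and T. Another is the Eno summit with rank 6649, with 55.45% A and T, whereas the Hex-A summit with rank 3752 has 76.24% and does not hold the 6-mer. Both lie outside the promoter windows. Over the whole optimal list 28.96% of summit windows hold the 6-mer, 40.5% of those in ranks 1 to 1000 and 24.7% of those in ranks 6001 to 8340. In windows 500 bp away it was present in 13.98%. The median share of A and T went from 69.3% in the 1000 strongest to 64.4% in the weakest range, against 56.4% in windows 500 bp away. Over the 17 promoter windows of the set this median was 61.4%, below the 66.3% of the whole optimal list. A 6-mer made of A and T is found more often in sequence rich in A and T, and no attempt was made to separate these. A match describes the letters in the window and is not a binding site.

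**Figure D2:**
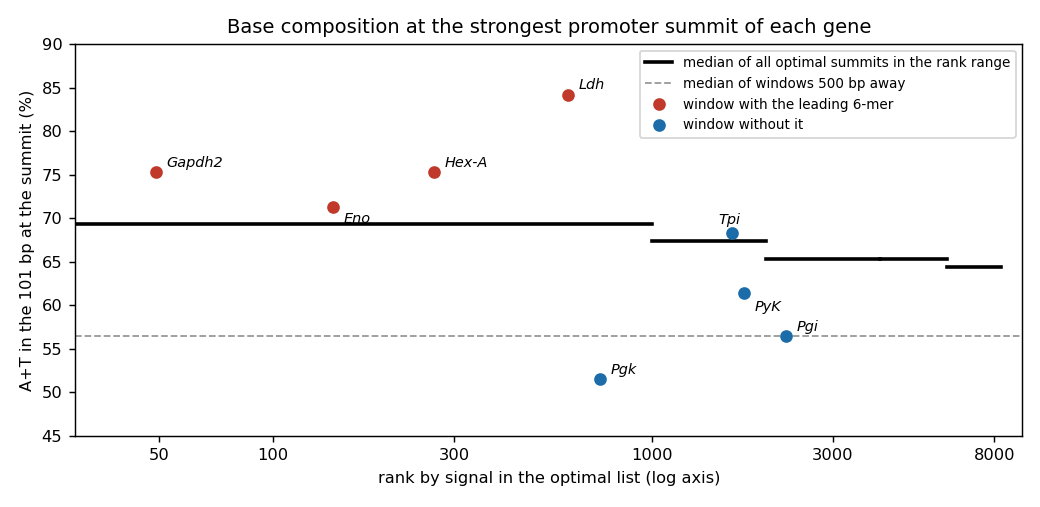
Share of A and T in the 101 bp centred on the strongest promoter summit of each of the 8 genes that had one, against its rank by signal on a log axis. Black bars are medians over all optimal summits in 5 ranges of rank and the dashed line is the median of windows 500 bp away; the 4 red points, which hold the leading 6-mer, lie at 71.3% or above, and the 4 blue points, which do not, at 68.3% or below.

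Other consensus motifs, 12 in all, were searched on both strands of the 17 promoter windows, and 8 of them were found in none. TATCGATA, the DNA replication-related element, was one of these, and was found in 2.95% of all optimal summit windows. AAGGTCA, a core sequence bound by ERR, was another, and was found in 0.588% of all. The remaining 6 were the core promoter motifs GGTCACAC and then CATCNCTA, the E-box CACGTG, the cyclic AMP response element TGACGTCA, the AP-1 site TGACTCA and the heat shock element GAANNTTC, each found in 0.144% to 2.88% of all. CGATA was present in 5 of the 17, at Pgi, PyK and 3 of the Pgk summits, against 18.9% of all, the GAGA motif GAGAG in 3 (10.01%), the E-box CAGCTG in 2 (4.14%) and the GATA motif AGATAA in 1 (7.13%). In windows 500 bp away the shares were 11.47% for CGATA and 5.56% for AGATAA, lower than at all summits. They were 13.8% for GAGAG and 5.26% for CAGCTG, higher than at all summits. TATCGATA contains CGATA, so the 2 searches overlap. These letters not being in a window of 101 bp says nothing about the factors that bind them.

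Pgk (FBgn0250906, 2L, 2746880 to 2753068, minus strand) held the most summits of the set. It encodes phosphoglycerate kinase, which yields ATP. Of its 9 summits 6 lay within 500 bp of one of its 5 TSSs, and each of the 5 TSSs had at least 1. The summit at -232 bp from the fifth TSS had a signal of 791.3 and rank 729, with replicate ranks of 660, 734 and 778 (724 ± 59.6, SD, n = 3). The summit at -261 bp from the third TSS was close behind, with rank 761 and replicate ranks of 632, 931 and 804, which overlap with those at the fifth. The summit at -304 bp from the fourth TSS was weaker, with rank 3985 and replicate ranks of 3420, 4407 and 4645. The second TSS had only a summit at 377 bp, with rank 3219, which lay 204 bp from that with rank 761. Of the 2 summits at the first TSS, that with rank 3298 ranked 2449 and 3717 in replicates 1 and 2. Replicate 3 had none within 100 bp of it. The other, with rank 7040, ranked 8678, 17126 and 3135 in the replicates. The highest signal in the gene, 951.0 with rank 521, lay in an intron at 977 bp from the first Pgk TSS, and the nearest TSS there belonged to Bacc, at -354 bp. Bacc lies on the other strand and overlaps Pgk, so this summit and the 2 at the first TSS cannot be assigned to 1 of the genes. Pgk is 6189 bp long, the median protein coding gene is 2164 bp, and 67 of all protein coding genes had as many summits as Pgk or more.

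Tpi, PyK and Pgi had the lowest ranks among the 8 genes with a promoter summit, though above the median rank of 2984 over all genes with one. Tpi (FBgn0086355, 3R, 30132981 to 30134599, minus strand) encodes triose phosphate isomerase. Its only summit, at -228 bp, had a signal of 488.3 and rank 1630, with replicate ranks of 1706, 1805 and 1476 (1662 ± 169, SD, n = 3). The 101 bp centred on this summit overlap an untranslated region of AdoR. PyK (FBgn0267385, 3R, 22367536 to 22372746, plus strand) encodes pyruvate kinase, which ends the pathway by making pyruvate and ATP. As in Eno, its highest signal was at an internal TSS. Summits at -402 and -203 bp from the second TSS had ranks 1749 and 2274, and replicate ranks of 2160, 1502 and 1828 for the first of these and 2223, 2161 and 2199 for the other. The first TSS of PyK had a weaker summit at -258 bp, with rank 4067, which lay closer to the TSS of Polr3F, a gene for a subunit of RNA polymerase III. That summit ranked 4140 in replicate 1 and 3737 in replicate 3, and replicate 2 had none within 100 bp. Pgi (FBgn0003074, 2R, 8910900 to 8914069, minus strand) encodes the isomerase that makes fructose 6-phosphate. Its summits at -50 and -250 bp had ranks 2253 and 5167. Replicate ranks were 2519, 2412 and 2002 for the stronger and 5771, 9296 and 3367 for the weaker. The gene lin has a TSS within 500 bp of both. The weaker summit lay closer to the TSS of lin, at -205 bp, than to that of Pgi. The replicate ranks of Tpi, PyK and Pgi overlapped between neighbours in the order, as did those of Ldh and Pgk, whereas every replicate ranked Pgk above Tpi.

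**Figure D3:**
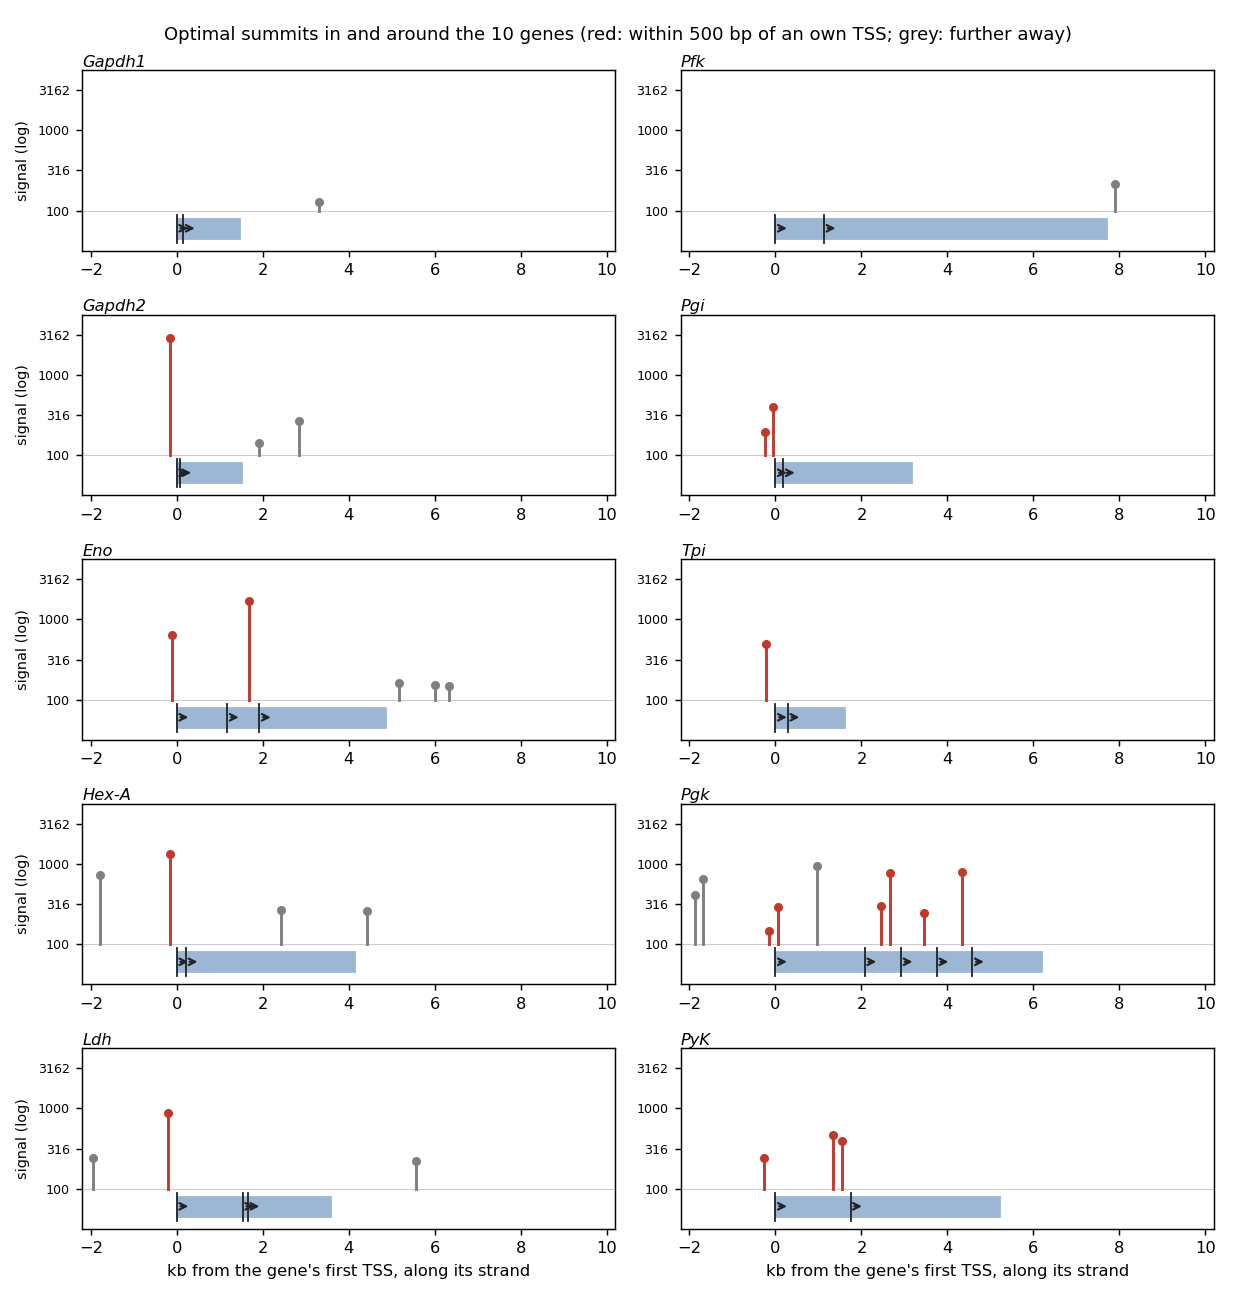
Positions of the 32 optimal summits in and around the 10 genes, in kb from the first TSS of each gene along its strand, with height giving the deposited signal on a log axis. Blue bars are genes and arrows their annotated TSSs; red summits lie within 500 bp of a TSS of the gene and grey ones further away. Eno, Pgk and PyK show red summits at internal TSSs, and Gapdh1 and Pfk show only a grey one beyond the 3' end.

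Gapdh1 and Pfk had no promoter summit. Gapdh1 (FBgn0001091, 2R, 7791901 to 7793380, minus strand) encodes the other glyceraldehyde-3-phosphate dehydrogenase. The only optimal summit assigned to it, with rank 8068, lay beyond its 3' end at -300 bp from a TSS of CG12824. Its replicate ranks were 24826 and 6611 in replicates 1 and 2, with none within 100 bp in replicate 3. The full lists, which include background, had no summit within 500 bp of a Gapdh1 TSS in the pooled list or in replicates 1 and 2. Replicate 3 had 2 there, with ranks of 14133 and 22654. Pfk (FBgn0003071, 2R, 10109740 to 10117457, plus strand) encodes phosphofructokinase, which commits sugar to the pathway. The only summit assigned to it had rank 4602, with replicate ranks of 4019, 5015 and 5231, and lay beyond its 3' end at -57 bp from a TSS of dmpd. Near the Pfk TSSs the full lists held 4 weaker summits in the pooled list, the highest with rank 18885, 2 in replicate 1, 2 in replicate 2 and none in replicate 3. Of the 9221 protein coding genes without an optimal promoter summit, 32.1% had a weaker one in the pooled list.

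The 2 Gapdh genes stood at opposite ends of the set. Of the 30-base words in the gene bodies, 12 were shared by Gapdh1 and Gapdh2. None was shared by their promoter windows. All of the 30-base words within 500 bp of the TSSs of each of the 10 genes occurred once in the assembly. Read length and mapping settings are unknown here, and the part of repeated sequence in the 2 ranks was not tested.

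Of the 17 promoter summits of the set, 9 lay upstream of the whole gene and 8 inside it, in introns or 5' untranslated regions. Relative to the nearest TSS of the gene, internal ones included, 15 were upstream and 2 downstream, which is 88.2% upstream. Of all 4120 promoter summits 82.1% were upstream, but these were placed by the nearest TSS of any protein coding gene. By that measure the PyK summit with rank 4067, upstream of PyK, is downstream of Polr3F, at 95 bp. The 2 shares are therefore not like for like. For the strongest summit of each of the 8 genes the distance ran from -402 bp at PyK to -50 bp at Pgi, with a median of -215 bp. For all promoter summits, not only the strongest of each gene and again by the nearest TSS of any gene, the median was -84 bp. The quartiles were -170 and -24 bp, and for the 650 among the 1000 strongest peaks the median was -121 bp. Beyond -200 bp lay 5 of the 8 strongest summits, those of Ldh, Tpi, Pgk, Eno and PyK, and 20.3% of all promoter summits. Between the optimal list and the replicates these 8 summits moved by at most 69 bp, at Ldh in replicate 1. The Ldh summit, at -202 bp in the optimal list, lay at -133, -196 and -211 bp in replicates 1, 2 and 3. It was thus beyond -200 bp in replicate 3 only. No test was made of the distances.

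**Figure D4:**
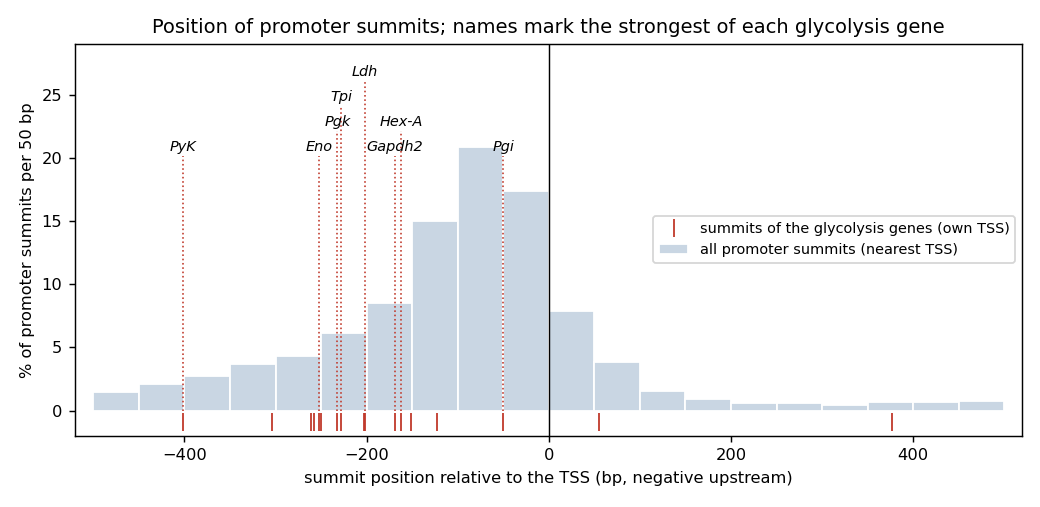
Positions of promoter summits relative to the TSS in bp, negative upstream. Bars give the percentage of all 4120 promoter summits in each 50 bp by their nearest TSS, and red ticks the 17 promoter summits of the glycolysis genes by their own nearest TSS. Names mark the strongest of each gene, of which 5 lie beyond -200 bp in the optimal list.

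Of the 32 summits, 18 were nearest to a TSS of the glycolysis gene and 14 to that of another gene. The latter included 3 near Rim2 beyond the 3' end of Eno, with ranks from 6297 to 6860, and 2 near CG16952 beyond the 3' end of Gapdh2, with ranks of 3588 and 7336. By position, 13 lay upstream of the gene, 9 downstream, 7 in introns, 2 in 5' untranslated regions and 1 in the 3' untranslated region of Hex-A. Of the 17 promoter summits, 13 were among the 8340 strongest peaks of all 3 replicates, and of the 32, 24 were, against 70.4% of the whole optimal list. Some ranks rested on pairs of summits that the lists barely separate. In every list the smallest gap between neighbouring summits was 199 bp, and 5 pairs, at Pgi, Pgk and PyK, were 199 to 206 bp apart. At 1 of these pairs, upstream of Pgk, the weaker summit had rank 2095 in the optimal list but 2324, 6892 and 21133 in replicates 1, 2 and 3, while its neighbour had 1056, 990 and 941.

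Paralogs of the same step differed in rank. Beside the promoter summit of Hex-A at rank 266, that of Hex-C had rank 7197 (8819, 7954 and 6196 in the replicates), and Hex-t1 and Hex-t2, named for the testis, had no summit in the gene or 2 kb around it. CG9961, a paralog of Pgk, had no summit. None of the 5 PyK paralogs listed, CG7069, CG7362, CG2964, CG11249 and CG12229, had a promoter summit, which 34.0% of all protein coding genes had. In the gene or 2 kb around it, CG7362 and CG12229 each had 1 summit, and CG7069, CG2964 and CG11249 had none. For phosphoglycerate mutase, Pglym78 had a summit at rank 2347 that it shared with CG11882, and Pglym87 had none. Ald1, which encodes aldolase, had a weak one at rank 7071, which ranked 10551 and 10396 in replicates 1 and 3 and was absent within 100 bp from replicate 2. Pfrx, which sets the level of an activator of phosphofructokinase, had 5 promoter summits, the highest with rank 1879 and replicate ranks of 1794, 1955 and 1879.

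Over a list of 45 other genes of sugar metabolism and its regulation, 27 had a promoter summit (60.0%, against 34.0% of all genes) and 6 had one among the 1000 strongest peaks (13.3%, against 6.78%). The median rank of the strongest promoter summit was 2938 in these 27, 2984 in all genes with one and 664.5 in the 8 glycolysis genes.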

How the data were processed

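The values are the authors' deposited narrowPeak lists in build dm6: 1 list per replicate, a pooled list and the optimal list, which kept peaks by their irreproducible discovery rate (IDR), 5 in all. Sonication gave fragments of 200 to 800 bp, per the labels. The deposited signal value of each peak is the authors' caller's; the caller and aligner: not given in the sources used here; lists were called against 1 control, per the text deposited with the samples. The pooled list and those of replicates 1 and 2 have 30000 peaks each, and that of replicate 3 has 27353, background included. The optimal list has the same summits as the 8340 strongest pooled peaks, so it is not independent of the replicates. The dm3 lists were not used, as no dm3 annotation was used here. Peak scores rest on an unknown depth, so no intervals are given.

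Genes and TSSs came from Ensembl release 115 and sequence from the release 6 assembly, whose arms contain all dm6 peaks. A replicate's summit no more than 100 bp away was taken as a match. Each quantity is a description; no test across genes was run. Placement of summits was tested on planted data (Python 3.11.15, pandas 2.3.3). All 45 pathway symbols were found, 2 of them (GlyP, GlyS) under another spelling. The genes, lists, motifs and alternatives were chosen with earlier results of these data known. The named genes are all 10 members, neighbours with a TSS within 500 bp of a summit, and bound genes of the pathway list; the text gives a part of these, and unbound paralogs are also named.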

Additional observations from a re-analysis of the deposited data

How the results depend on the processing

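Of the 10 genes, 8 had a promoter summit with a window of 1000 bp, with the 5' end of the gene as its only TSS, in the stronger part of the optimal list, in peaks of all 3 replicates, with whole peaks, and with each replicate left out. With a window of 200 bp the count was 5 of 10, against 26.2% of all protein coding genes, with 5 promoter summits upstream. Counting the gene body only, 4 of 10 genes held 10 summits, against 18.3% of all genes with any. With the 5' end as the only TSS, 9 promoter summits were upstream. The strongest promoter summit then had rank 1038 at Eno, 3298 at Pgk and 4067 at PyK. The median percentile was 87.6 with 200 bp, 93.3 with 1000 bp and 92.8 in replicate 2, and 89.6 to 90.02 with a replicate left out, where the lists are shorter. The cause of these shifts was not tested. Leaving out a replicate kept optimal peaks found in the other replicates' strongest peaks, and the optimal list still came from all 3. The summit assigned to Gapdh1 was among the 8340 strongest peaks of 1 replicate, and unknown depth limits what weak ranks show.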

Other observations

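Of 8 transcription regulators of sugar metabolism, 7 had a promoter summit, all but sug, against 34.0% of all protein coding genes. ERR, the receptor that switches on glycolysis in fly embryos, had one at -210 bp with rank 556 and replicate ranks of 434, 836 and 427, and shared it with Atg18a. bigmax, a partner of the sugar sensor Mondo, had one at rank 398 that it shared with Hmu, and Mondo itself had one at rank 4188, with none within 100 bp in replicate 3. The summit of sima, the fly HIF-1 alpha gene, had rank 2938, and that of Max had rank 2834, shared with CG42374 and Mettl5. The summits of Myc and tgo were weak, with rank 7616 for Myc (5728, 12108 and 8689 in the replicates) and 8012 for tgo (7121 and 8097 in replicates 1 and 2, and none within 100 bp in replicate 3).

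In the branches that join or leave glycolysis, a promoter summit was present at 3 of 5 pentose phosphate genes, 3 of 5 glycogen genes and 5 of 7 genes listed as exits. The share over all protein coding genes was 34.0%. The transketolase gene CG8036 of the pentose phosphate pathway had a summit at -243 bp with rank 111 and replicate ranks of 125, 95 and 132. Zw and Taldo had ranks of 2275 and 3080, and Pgd and Rpi had no promoter summit. For glycogen breakdown, GlyP had a promoter summit at rank 377 (460, 307 and 489 in the replicates) and Pgm1, for phosphoglucomutase, one at rank 567 (491, 744 and 530). Of the other glycogen genes, GlyS had one at rank 6034, and UGP and AGBE had none. Gpdh1, which makes glycerol 3-phosphate, had one at rank 994, shared with Sfp26Ad. Of the pyruvate dehydrogenase genes Pdha and Pdhb, Pdhb had a summit at rank 1421, shared with alpha-Man-Ib, and Pdha had none. Among the other genes listed as exits, muc had a promoter summit at rank 3221, Gpo1 at 5538 and Mpc1 at 5849, and CG7430 had none.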
